A study of Mus musculus with 6 samples.

Results

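The genes described here are 10 members of the BMP and TGF-beta signaling pathways, taken by name from the deposited expression matrix of 54167 genes: the ligands *Bmp2*, *Bmp4*, *Bmp7*, *Tgfb1* and *Inhba*, the extracellular proteins *Grem1* and *Thbs1*, and the targets or feedback genes *Id1*, *Id3* and *Smad7*. All 10 were found once each, and all 10 reached at least 1 TPM (a level per transcript length, scaled to the same total in each library) in at least 3 of the 6 tumors, the minimum for testing. RNA-seq was made from bulk colorectal tumors of C57BL/6J mice in which cancers had been induced with azoxymethane (AOM), a carcinogen, and dextran sulfate sodium (DSS), which injures and inflames the colon. Male mice aged 8 weeks were injected with AOM at 10 mg/kg, drank 2.5% DSS in repeated courses of 7 days, and were examined for tumors at day 98. Both groups carried *Trp53* alleles flanked by loxP sites. The 3 *Trp53fl/fl* tumors came from mice without Cre, in which these alleles are intact, and the 3 *VP* tumors came from *Pvillin-Cre* + *Trp53fl/fl* mice. The villin promoter drives Cre in the intestinal epithelium, so fibroblasts, muscle, vessels and immune cells of a *VP* tumor keep their floxed *Trp53*. No line with Cre alone was analysed here, so that Cre itself and the loss of *Trp53* cannot be told apart.

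BMP ligands are dimers that bind type I and type II receptor kinases, which phosphorylate SMAD1, SMAD5 and SMAD9. TGF-beta and activins use receptors of the same family and signal through SMAD2 and SMAD3. Both branches share SMAD4. In the colon, BMP signaling is high toward the lumen, where it favors differentiation, and is kept low at the crypt base by antagonists such as Gremlin 1, which are secreted by fibroblasts and smooth muscle beneath the crypts. Loss of BMP signaling is known to cause juvenile polyposis. TGF-beta restrains growth of normal colon epithelium, while it activates fibroblasts and dampens immune cells in tumors.

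*Trp53* was at 124.94, 99.3 and 147.45 TPM in the *Trp53fl/fl* tumors and at 38.45, 32.79 and 27.83 TPM in *VP* tumors, with a fold change on the log2 scale of -1.87 (SE 0.18, limma adjusted p = 0.0207). All fold changes here are *VP* minus *Trp53fl/fl* on the log2(TPM + 1) scale, on which a change of a weakly expressed gene is understated. The *Trp53* call was lost (adjusted p 0.0553 to 0.104) without the filter on low values, with the replicate block, and without *Trp53fl/fl* replicate 1 or 3 or *VP* replicate 1 or 2, while the log2 fold change stayed between -2.02 and -1.73 over the 15 alternatives. The deposited value covers the whole gene and does not show which cells or exons the remaining RNA came from. Epithelial markers were abundant in every tumor, with a summed level of 10600 to 11000 TPM over 12 genes in the *Trp53fl/fl* tumors and of 11900 to 13000 TPM in *VP* tumors. In bulk RNA, fewer cells of a type and less RNA per cell cannot be told apart. TPM keep no read number, so the depth is unknown, and no counting error can be attached to a value. The labels name the tumors as separate samples, and the p-values set the difference between genotypes against the spread between these samples. The methods do not say whether each tumor came from a separate mouse.

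None of the 10 genes passed the limma test after Benjamini-Hochberg adjustment over the 15117 genes tested, where 25 genes (0.165%) did. Of those 25, *VP* tumors had 12 higher and 13 lower, a split that became 12 and 8 with median-of-ratios rescaling, 12 and 20 with centring on epithelial markers and 21 and 11 with centring on fibroblast markers. At an unadjusted limma p under 0.05, 2 of the 10 genes, *Bmp4* and *Bmp7*, were lower in *VP* tumors and none was higher. Over all genes tested, 12.5% had such a p in either direction, 8.0% with a lower and 4.51% with a higher level in *VP* tumors. The same pair were the genes with every *VP* tumor below every *Trp53fl/fl* tumor, which held for 13.3% of all genes tested, and none of the 10 had every *VP* tumor above, which held for 6.03%. The log2 fold change was below 0 for 7 of the 10 genes and for 60.8% of all genes tested. The median was -0.27 over the 10 genes and -0.07 over all genes. For the other 8 genes the genotypes overlapped. *VP* replicate 3 stood apart from the other *VP* tumors in several of the 10 genes. Without it, 4 of the 10 genes had an unadjusted limma p under 0.05, *Grem1* higher and *Bmp4*, *Id3* and *Smad7* lower, where 12.7% of all genes tested had such a p, and still none passed the adjustment.

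**Figure D1:**
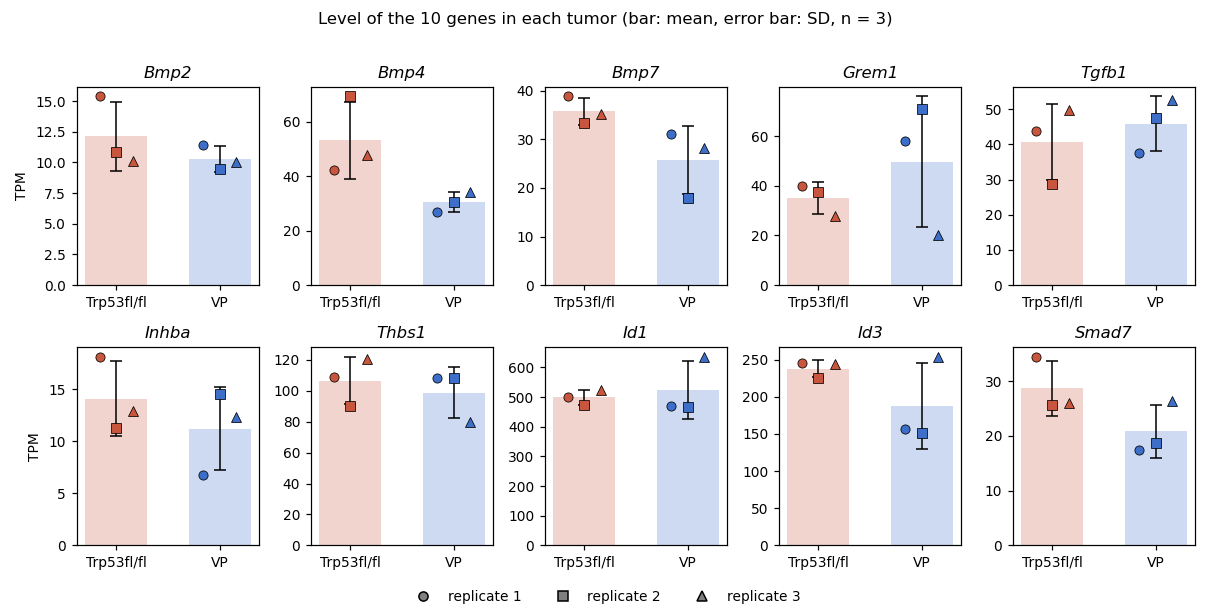
TPM of each of the 10 genes in the 3 *Trp53fl/fl* tumors (red) and the 3 *VP* tumors (blue). Bars are means, error bars are SD (n = 3), and marker shapes are replicate numbers, which the labels do not give as pairs. The genotypes do not overlap for *Bmp4* and *Bmp7*, and *VP* replicate 3 (triangle) lies away from the other *VP* tumors for *Grem1*, *Id1*, *Id3* and *Smad7*.

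The levels of the 10 genes, which TPM make comparable between genes, spanned from *Id1* at 511 ± 64.9 TPM (SD over the 6 tumors) to *Bmp2* at 11.2 ± 2.15 TPM. *Id1* was above *Id3* (213 ± 46.4 TPM), and *Id3* was above *Thbs1* (103 ± 14.9 TPM), with no overlap between the ranges of these 3 genes, and *Thbs1* was above the next gene in every tumor. Below them came *Tgfb1* (43.3 ± 8.85 TPM), *Grem1* (42.4 ± 18.8 TPM), *Bmp4* (41.8 ± 15.5 TPM), *Bmp7* (30.8 ± 7.26 TPM), *Smad7* (24.8 ± 6.15 TPM), *Inhba* (12.7 ± 3.74 TPM) and *Bmp2*, and each of these neighbors in the order overlapped the next in its range over the 6 tumors. *Tgfb1* exceeded *Grem1* in 3 of 6 tumors and *Grem1* exceeded *Bmp4* in 2 of 6, so that these genes cannot be put in order. By genotype means, *Bmp4* ranked 4 of the 10 in *Trp53fl/fl* tumors and 6 in *VP* tumors, and *Grem1* ranked 7 and 4. *Grem1* varied most among tumors, by 3.49 times between the lowest and the highest, followed by *Inhba* with 2.67 times and *Bmp4* with 2.58 times, and *Id1* varied least, by 1.36 times.

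*Bmp4*, a BMP ligand made mainly by mesenchymal cells of the gut wall, was at 42.39, 69.34 and 47.8 TPM in the *Trp53fl/fl* tumors and at 26.82, 30.5 and 34.24 TPM in *VP* tumors. All *VP* tumors lay below all *Trp53fl/fl* tumors, with means of 53.2 ± 14.3 and 30.5 ± 3.71 TPM (SD, n = 3). The log2 fold change was -0.76 (SE 0.20, 95% interval -1.22 to -0.29) and missed the adjusted threshold (limma adjusted p = 0.278). It ranged from -0.91 to -0.55 over the 15 alternatives. *Bmp7*, a ligand of the same family that forms heterodimers with BMP2 and BMP4, was at 38.84, 33.32 and 35.28 TPM in the *Trp53fl/fl* tumors and at 31.16, 17.91 and 28.25 TPM in *VP* tumors. The genotypes did not overlap, and *VP* replicate 2 had the lowest level. The log2 fold change of *Bmp7* was -0.49 (SE 0.21, limma adjusted p = 0.394), and it ranged from -0.65 to -0.26 over the alternatives, with the unadjusted p above 0.05 in 10 of the 15. *Bmp2*, which intestinal epithelium and stroma both express, was at 15.37, 10.88 and 10.15 TPM against 11.44, 9.42 and 10.02 TPM. Its genotypes overlapped, with *Trp53fl/fl* replicate 1 above the rest, and its log2 fold change was -0.20 (95% interval -0.62 to 0.22, limma adjusted p = 0.649).

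Of the 13 BMP ligands listed, 8 were expressed above the minimum. None passed the adjustment, 3 were lower in *VP* tumors at an unadjusted p under 0.05 and none was higher, against 8.0% and 4.51% of all genes tested, with a median log2 fold change of -0.24. The list holds *Bmp2*, *Bmp4* and *Bmp7*, and its 5 other tested ligands had the opposite sign on balance, with 3 higher, 2 lower and a median of 0.19. The third ligand with such a p, after *Bmp4* and *Bmp7*, was *Bmp5*, a mesenchymal ligand, at 13.16, 21.18 and 9.53 TPM in the *Trp53fl/fl* tumors and 8.78, 6.13 and 9.75 TPM in *VP* tumors, where the genotypes overlapped (log2 fold change -0.71, limma adjusted p = 0.388). *Bmp8b* was at 1.95, 4.05 and 2.39 TPM against 6.49, 4.3 and 1.9 TPM, again with overlap and with a log2 difference of 0.40 (limma adjusted p = 0.668). Summed over the 13 ligands, which was computed after their values were seen and is given without a test, the level was 119.95, 147.31 and 114.93 TPM in the *Trp53fl/fl* tumors and 94.56, 77.44 and 91.24 TPM in *VP* tumors. *Bmp2*, *Bmp4* and *Bmp7* made up most of that sum in each tumor.

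*Grem1* encodes Gremlin 1, a secreted antagonist that binds BMP2, BMP4 and BMP7. It was at 40.01, 37.58 and 27.92 TPM in the *Trp53fl/fl* tumors and at 58.05, 70.7 and 20.27 TPM in *VP* tumors. *VP* replicates 1 and 2 had the highest levels of the 6 tumors and *VP* replicate 3 the lowest, so the genotypes overlapped, with a log2 fold change of 0.33 (SE 0.43, 95% interval -0.70 to 1.35, limma adjusted p = 0.768). This value depended on which tumors were included. Without *VP* replicate 3 the log2 fold change was 0.86 (unadjusted limma p under 0.05, adjusted p = 0.204), without *VP* replicate 2 it was -0.01 (limma adjusted p = 0.992), and without *VP* replicate 1 it was 0.13. The ratio of *Grem1* to *Bmp4* TPM, formed after the values were seen and not tested, was 0.944, 0.542 and 0.584 in the *Trp53fl/fl* tumors and 2.164, 2.318 and 0.592 in the *VP* tumors. *Grem1* thus exceeded *Bmp4* in *VP* replicates 1 and 2 alone.

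Of the 13 BMP antagonists, 10 were tested, with *VP* tumors higher for 7 and lower for 3, a median log2 fold change of 0.26 and no gene past the adjustment. *Twsg1* encodes Twisted gastrulation, which binds BMPs together with Chordin. It was at 62.69, 70.72 and 47.32 TPM in the *Trp53fl/fl* tumors and at 39.14, 37.7 and 42.47 TPM in *VP* tumors, where every *VP* tumor was lower (log2 fold change -0.57, limma adjusted p = 0.301). *Fstl3*, which encodes a follistatin-like protein that binds activins, had the opposite direction, at 7.72, 6.43 and 8.16 TPM against 12.16, 11.18 and 9.33 TPM, with every *VP* tumor higher (log2 fold change 0.49, limma adjusted p = 0.319). Noggin (*Nog*) was below the minimum, with no tumor above 1.12 TPM.

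The 250 bases upstream of the start of *Grem1* and of *Bmp4* are shown for an antagonist and a ligand that it binds. They come from the RefSeq promoter table of GRCm38.p6, in which 5 of the 10 genes have an entry, and each is written 5′ to 3′ on the strand of its gene. Capitals mark CAGAC, a SMAD binding element bound by SMAD3 and SMAD4, and GGCGCC, a GC-rich element bound by SMAD1 and SMAD5. Both strands were searched, and the motifs share no bases.
Grem1, chr2:113758649-113758898, minus strand: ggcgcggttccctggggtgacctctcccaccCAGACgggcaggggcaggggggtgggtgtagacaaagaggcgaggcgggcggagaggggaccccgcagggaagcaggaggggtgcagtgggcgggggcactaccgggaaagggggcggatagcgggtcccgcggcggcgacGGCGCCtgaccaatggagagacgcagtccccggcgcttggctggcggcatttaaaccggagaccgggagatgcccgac
Bmp4, chr14:46390670-46390919, minus strand: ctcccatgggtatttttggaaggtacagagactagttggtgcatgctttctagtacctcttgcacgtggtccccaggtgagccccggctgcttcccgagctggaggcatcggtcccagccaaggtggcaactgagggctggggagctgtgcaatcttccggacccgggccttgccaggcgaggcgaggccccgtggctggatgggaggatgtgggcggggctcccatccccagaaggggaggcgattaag
The *Grem1* window holds 1 CAGAC, beginning 219 bases upstream, and 1 GGCGCC, beginning 78 bases upstream, and its GC content is 72.0%. The *Bmp4* window holds neither word and has a GC content of 63.2%. Over 32851 promoter windows of this length, 42.2% hold CAGAC on either strand and 9.59% hold GGCGCC. A match is a word in the sequence, and binding was not measured in these tumors.

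In the GENCODE M21 annotation of GRCm38, *Bmp4* (ENSMUSG00000021835) lies on the minus strand of chromosome 14 from 46383520 to 46390669, *Bmp7* (ENSMUSG00000008999) on the minus strand of chromosome 2 from 172868012 to 172940321, and *Grem1* (ENSMUSG00000074934) on the minus strand of chromosome 2 from 113746164 to 113758646. *Bmp2* (133552159 to 133562885), *Id1* (152736251 to 152737410) and *Thbs1* (118111876 to 118127133) lie on the plus strand of the same chromosome. *Id3* is on chromosome 4 from 136143497 to 136145755, *Inhba* on chromosome 13 from 16011851 to 16031621 and *Tgfb1* on chromosome 7 from 25687002 to 25705077, all on the plus strand. All are protein-coding. Exons of *Bmp4* overlap *Gm15217* and those of *Thbs1* overlap *Gm29233* on the opposite strand, and whether reads were counted by strand is not given in the sources used here. *Gm29233* was at 0 TPM in every tumor, and *Gm15217* was at 0.14 TPM in *Trp53fl/fl* replicate 1 and at 0 in the other tumors.

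**Figure D2:**
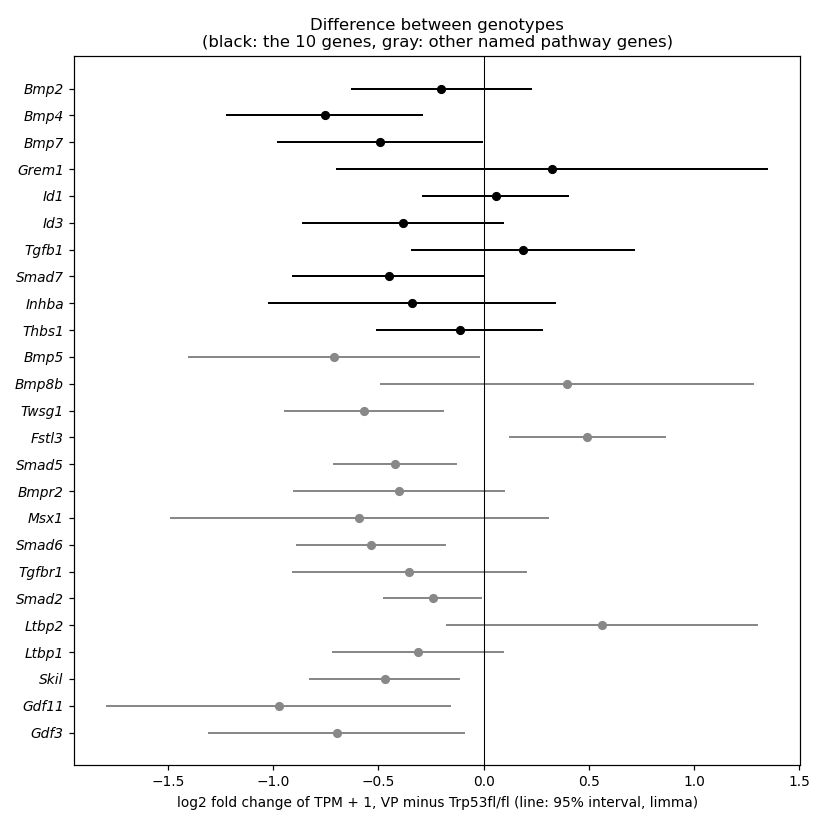
Log2 fold change of TPM + 1, *VP* minus *Trp53fl/fl*, with its 95% interval from limma, for the 10 genes (black) and 15 other named pathway genes (gray). The intervals of *Bmp4* and *Bmp7* lie below 0 before adjustment, that of *Grem1* spans -0.70 to 1.35, and none of the genes shown passed the adjustment over all genes.

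*Id1* and *Id3* encode inhibitors of basic helix-loop-helix transcription factors and are direct targets of BMP-activated SMADs. *Id1*, the most abundant of the 10 genes, was at 500.9, 472.02 and 522.86 TPM in the *Trp53fl/fl* tumors and at 469.58, 466.71 and 635.86 TPM in *VP* tumors. The genotypes overlapped, with *VP* replicate 3 highest and the other *VP* tumors lowest. Its log2 fold change was 0.06 (SE 0.15, 95% interval -0.29 to 0.40, limma adjusted p = 0.884), and its sign turned without *VP* replicate 3 (-0.09) and with centring on epithelial markers (-0.10). *Id3* was at 244.94, 224.55 and 244.13 TPM against 156.84, 151.15 and 253.72 TPM. Again *VP* replicate 3 was the highest of the 6 tumors and the other *VP* tumors were the lowest, with a log2 fold change of -0.38 (SE 0.20, limma adjusted p = 0.466). Without *VP* replicate 3 the log2 fold change of *Id3* was -0.62 (limma adjusted p = 0.145). It was -0.25 without *VP* replicate 2 (limma adjusted p = 0.740) and -0.28 without *VP* replicate 1 (limma adjusted p = 0.656). The ratio of *Id1* to *Id3*, formed after the values were seen and not tested, was 2.045, 2.102 and 2.142 in the *Trp53fl/fl* tumors and 2.994, 3.088 and 2.506 in the *VP* tumors, so the level of *Id1* relative to *Id3* was higher in each *VP* tumor.

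Of the 10 BMP target genes listed, 9 were tested, and all but *Id1* had a log2 fold change below 0, with a median of -0.38. None passed the adjustment, and 2 of the 9 (22.2%) were lower at an unadjusted limma p under 0.05. Over all genes tested, 60.8% had a log2 fold change below 0 and 8.0% were lower with such a p. *Smad6*, an inhibitory SMAD that BMP signaling induces, was at 13.85, 10.81 and 12.67 TPM in the *Trp53fl/fl* tumors and at 7.96, 7.52 and 9.3 TPM in *VP* tumors, with every *VP* tumor lower (log2 fold change -0.54, limma adjusted p = 0.299). *Id2*, named after its values were seen as the other gene of this list with an unadjusted p under 0.05, was at 74.09, 82.3 and 74.05 TPM against 62.52, 54.05 and 65.36 TPM (log2 fold change -0.34, limma adjusted p = 0.337). For *Smad6* and *Id2*, *VP* replicate 3 was below the *Trp53fl/fl* tumors. *Msx1*, a homeobox gene, was at 3.35, 5.64 and 2.65 TPM against 1.67, 1.17 and 4.31 TPM, where *VP* replicate 3 was again the highest *VP* tumor (log2 fold change -0.59, limma adjusted p = 0.533). *Atoh8* and *Bambi*, also named after their values were seen, had their highest level in *VP* replicate 3, with 11.73 and 9.33 TPM, and their levels in *VP* replicates 1 and 2 were 5.74 and 5.89 TPM for *Atoh8* and 3.04 and 3.18 TPM for *Bambi*.

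Of the 10 listed BMP receptors and SMADs, 9 were tested, with *VP* tumors lower for 8 and higher for 1, a median log2 fold change of -0.35 and none past the adjustment. Over all genes tested, 60.8% had a log2 fold change below 0. At an unadjusted limma p under 0.05, 1 of the 9 (11.1%) was lower, against 8.0% of all genes tested. *Smad5*, one of the SMADs that BMP receptors phosphorylate, was at 27.86, 26.27 and 25.77 TPM in the *Trp53fl/fl* tumors and at 18.52, 18.13 and 22.47 TPM in *VP* tumors. Every *VP* tumor was lower (log2 fold change -0.42, limma adjusted p = 0.312). *Bmpr2*, the BMP type II receptor, was at 11.69, 15.09 and 8.67 TPM against 10.02, 7.94 and 7.7 TPM and overlapped between genotypes (log2 fold change -0.40, limma adjusted p = 0.469).

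*Tgfb1*, the most widely expressed TGF-beta ligand, was at 43.9, 28.76 and 49.63 TPM in the *Trp53fl/fl* tumors and at 37.4, 47.53 and 52.63 TPM in *VP* tumors. The genotypes overlapped and *Trp53fl/fl* replicate 2 had the lowest level. The log2 fold change was 0.19 (SE 0.22, 95% interval -0.34 to 0.71, limma adjusted p = 0.738), and without *Trp53fl/fl* replicate 2 it was -0.04. *Inhba* encodes the subunit of activin A, which signals through SMAD2 and SMAD3. It was at 18.14, 11.28 and 12.95 TPM against 6.8, 14.53 and 12.33 TPM, and the log2 fold change was -0.34 (SE 0.29, limma adjusted p = 0.631). *VP* replicate 1 was the lowest and *Trp53fl/fl* replicate 1 the highest, and the log2 fold change was -0.05 without that *VP* tumor. *Thbs1* encodes thrombospondin 1, a matrix protein that can release TGF-beta from its latent complex. It was at 108.81, 90.23 and 120.85 TPM against 108, 108.35 and 79.68 TPM, with *VP* replicate 3 lowest. Its log2 fold change was -0.11 (SE 0.17, 95% interval -0.51 to 0.28, limma adjusted p = 0.788), which turned to 0.03 without *VP* replicate 3 and to 0.02 with centring on fibroblast markers.

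*Smad7* encodes the inhibitory SMAD that TGF-beta and BMP signals induce and that blocks their receptors. The gene (ENSMUSG00000025880) lies on chromosome 18 from 75367529 to 75395935 on the plus strand. *Smad7* was at 34.48, 25.63 and 26 TPM in the *Trp53fl/fl* tumors and at 17.48, 18.72 and 26.41 TPM in *VP* tumors. *VP* replicates 1 and 2 were the lowest of the 6 tumors, and *VP* replicate 3 lay among the *Trp53fl/fl* tumors. The log2 fold change was -0.45 (SE 0.19, 95% interval -0.91 to 0.00, limma adjusted p = 0.40). Without *VP* replicate 3 it was -0.62 (limma adjusted p = 0.276). Without *Trp53fl/fl* replicate 1, the tumor with the highest level, it was -0.32 (limma adjusted p = 0.727), and without *VP* replicate 1 it was -0.34.

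Among the other TGF-beta genes, the ligands, receptors and SMADs (10 of 10 tested) had 4 genes higher and 6 lower in *VP* tumors, with a median log2 fold change of -0.10. *Smad2* was at 31.47, 30.91 and 30.49 TPM in the *Trp53fl/fl* tumors and at 25.79, 26.9 and 25.37 TPM in *VP* tumors, a small difference with no overlap (log2 fold change -0.24, limma adjusted p = 0.384). *Tgfbr1*, the type I receptor, was at 17.64, 21.38 and 11.94 TPM against 15.98, 11.59 and 11.11 TPM (log2 fold change -0.35, limma adjusted p = 0.546). The genes for storage and activation of latent TGF-beta (11 of 12 tested) had 4 higher and 7 lower, with a median of -0.06 and none at an unadjusted p under 0.05. *Ltbp2* and *Ltbp1*, which encode matrix proteins of the latent TGF-beta binding family, had log2 fold changes of 0.56 (limma adjusted p = 0.488) and -0.31 (limma adjusted p = 0.482), and their genotypes overlapped. The TGF-beta targets and inhibitors (13 of 13 tested) had 3 higher and 10 lower, with a median of -0.13. *Skil*, which encodes the SMAD corepressor SnoN, was at 34.06, 43.34 and 31.59 TPM against 22.9, 27.07 and 27.39 TPM, with every *VP* tumor lower (log2 fold change -0.47, limma adjusted p = 0.323).

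Of the 12 activins and other ligands or receptors of the superfamily, 6 were tested, with 2 higher and 4 lower and a median of -0.22. *Gdf11*, a ligand close to myostatin, was at 37.48, 30.2 and 37.22 TPM in the *Trp53fl/fl* tumors and at 20.02, 9.26 and 27.09 TPM in *VP* tumors. Every *VP* tumor was lower, and the log2 fold change was -0.97 (limma adjusted p = 0.345), which became -0.56 without *VP* replicate 2, the tumor with the lowest level. *Gdf3* was at 1.07, 2.49 and 1.42 TPM against 0.56, 0.83 and 0.43 TPM, close to the minimum for testing (log2 fold change -0.70, limma adjusted p = 0.358, and -1.27 with a pseudocount of 0.1).

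Over the 8 pathway lists together, 76 of 93 genes were tested, *VP* tumors had 25 higher and 51 lower, and the adjustment left none. At an unadjusted p under 0.05, 12 genes were lower and 1 was higher. Lower genes with such a p made up 15.8% of the tested genes, against 8.0% of all genes tested, and the share with every *VP* tumor below every *Trp53fl/fl* tumor was 18.4%, against 13.3%. The median log2 fold change was -0.11, against -0.07 over all genes, of which 60.8% were below 0. The lists hold the 10 genes and were chosen with earlier results of these data known. Without the 10, 66 genes were tested, the shares were 15.2% and 18.2%, and the median was -0.10. In each of these lists most of the tested genes overlapped between genotypes.

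**Figure D3:**
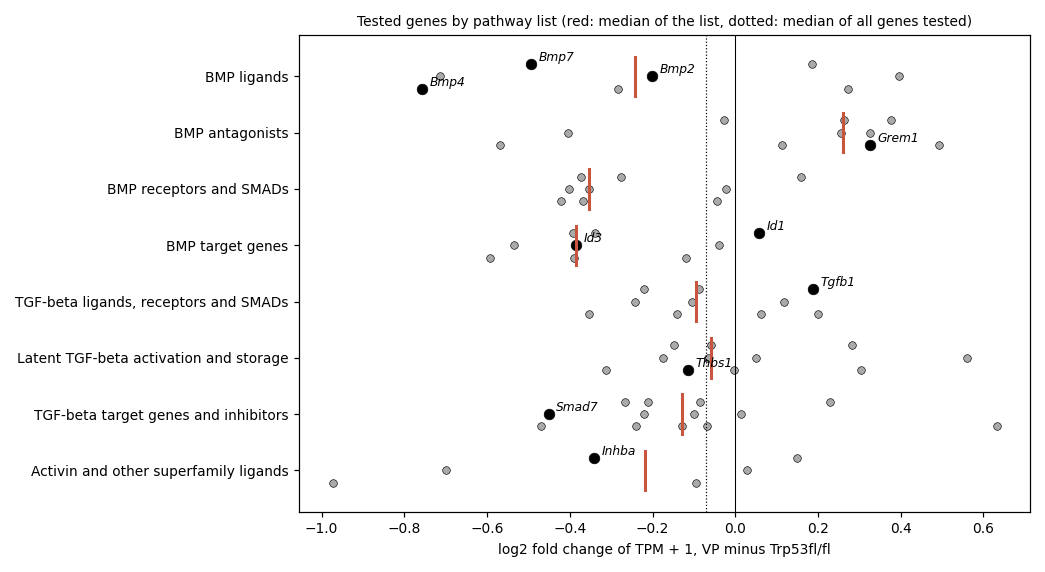
Log2 fold change of TPM + 1, *VP* minus *Trp53fl/fl*, of every tested gene on the 8 pathway lists, with the 10 genes in black, the list medians in red and the median of all genes tested (-0.07) dotted. BMP targets and BMP receptors and SMADs lie mostly left of 0, with medians of -0.38 and -0.35, and BMP antagonists lie mostly right of it, with a median of 0.26. Of all genes tested, 60.8% lie left of 0.

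Markers of the cell types in these tumors were set beside the 10 genes. Of the 10 fibroblast markers, 9 were tested, with 4 higher (*Col1a1*, *Col1a2*, *Col6a1* and *Pdpn*) and 5 lower in *VP* tumors and a median of -0.08. Of the 9, *Pdgfra*, *Lum* and *Dpt* (33.3%) were lower at an unadjusted p under 0.05 and in every *VP* tumor, against 8.0% and 13.3% of all genes tested, and none passed the adjustment. The summed level of the 10 markers was 918 to 1020 TPM in the *Trp53fl/fl* tumors and 784 to 1120 TPM in *VP* tumors. *Fap* was below the minimum for testing, with at most 1.09 TPM. *Pdgfra*, picked with its values in view, a receptor that marks the subepithelial fibroblasts in which BMP ligands are strongly expressed, was at 29.12, 40.29 and 28.69 TPM in the *Trp53fl/fl* tumors and at 21.35, 23.86 and 19.78 TPM in *VP* tumors (log2 fold change -0.56, limma adjusted p = 0.306). Like *Bmp4*, it was lower in every *VP* tumor and highest in *Trp53fl/fl* replicate 2. The ratio of *Bmp4* to *Pdgfra*, formed after the values were seen and not tested, was 1.456, 1.721 and 1.666 in the *Trp53fl/fl* tumors and 1.256, 1.278 and 1.731 in the *VP* tumors, with overlap between the genotypes. The part of *Pdgfra*-positive cells in the level of *Bmp4* was not tested.

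The 8 smooth muscle markers were all tested, and all 8 had a log2 fold change above 0, with a median of 0.24 and none at an unadjusted p under 0.05. Their summed level was 696.01, 494.98 and 819.36 TPM in the *Trp53fl/fl* tumors and 886.53, 1363.21 and 420.27 TPM in *VP* tumors. *VP* replicates 1 and 2 were the highest and *VP* replicate 3 the lowest, as for *Grem1*. Among the *Trp53fl/fl* tumors the order differed. There, replicate 3 was highest for the muscle sum and lowest for *Grem1* (27.92 TPM). The ratio of *Grem1* to *Acta2*, the smooth muscle actin gene, formed after the values were seen and not tested, was 0.224, 0.221 and 0.121 in the *Trp53fl/fl* tumors and 0.251, 0.215 and 0.129 in the *VP* tumors. Relative to *Acta2*, the levels of *Grem1* in *VP* replicates 1 and 2 lay close to those in *Trp53fl/fl* replicates 1 and 2. *Acta2* was picked with its values in view and varied least of the 8 markers, by 2.1 times between the lowest and the highest tumor. *Des* varied most, by 8.11 times. Ratios of *Grem1* to the other muscle markers were not formed, so the closeness is shown for *Acta2* alone. The part of muscle cells or myofibroblasts in the level of *Grem1* was not tested.

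All 6 neutrophil markers had a log2 fold change above 0 (median 1.23), 4 of them at an unadjusted p under 0.05, where 4.51% of all genes tested were higher with such a p, and none passed the adjustment. *Csf3r* and *Ly6g* overlapped between the genotypes. The summed level of the 6 markers was 361 to 693 TPM in the *Trp53fl/fl* tumors and 1120 to 1920 TPM in *VP* tumors. Of the 12 epithelial markers, 10 were higher and 2 lower (median 0.11). At an unadjusted limma p under 0.05 and in every *VP* tumor, 3 of the 12 were higher (*Cldn7*, *Krt19* and *Lgals4*). Over all genes tested, 4.51% were higher with such a p and 6.03% in every *VP* tumor. None of the 12 passed the adjustment. Their summed level did not overlap between genotypes, at 10600 to 11000 against 11900 to 13000 TPM. The summed levels overlapped between genotypes for macrophage markers (356 to 380 against 372 to 458 TPM, 4 of 6 higher), endothelial markers (103 to 135 against 116 to 137 TPM, 5 of 6 higher), T cell markers (19.4 to 24.9 against 10.7 to 23.9 TPM, 5 of 5 tested lower), mature colonocyte markers (680 to 775 against 540 to 869 TPM, 4 of 6 higher) and stem cell markers (390 to 477 against 368 to 516 TPM, 3 of 5 tested lower). Of the 5 stem cell markers tested, *Lgr5* and *Axin2* (40.0%) were lower at an unadjusted limma p under 0.05 and in every *VP* tumor. Over all genes tested, 8.0% and 13.3% were lower by these measures. The colonocyte marker *Car1* was lower and the macrophage marker *Cd68* higher by the same measures, and none of these genes passed the adjustment. The T cell marker *Cd8a* and the stem cell marker *Olfm4* were below the minimum for testing. The part of these cells in the levels of the 10 genes was not tested.

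**Figure D4:**
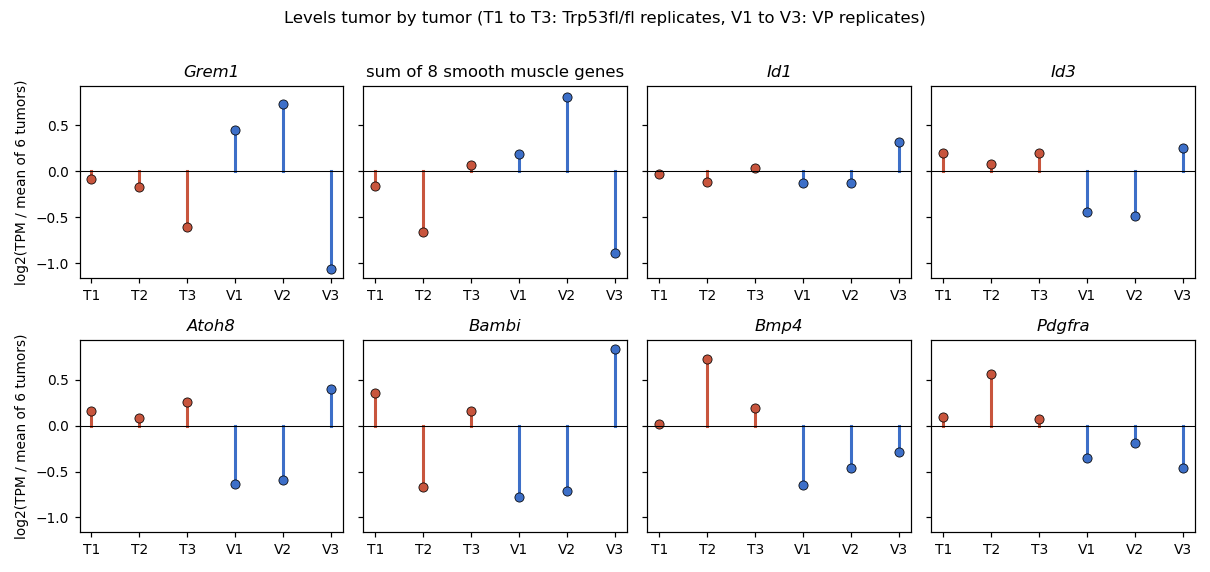
Level in each tumor relative to the mean of the 6 tumors, as log2 of the TPM ratio, for *Grem1*, the sum of 8 smooth muscle genes, *Id1*, *Id3*, *Atoh8*, *Bambi*, *Bmp4* and *Pdgfra* (red, *Trp53fl/fl*; blue, *VP*). *VP* replicate 3 is the lowest tumor for *Grem1* and the muscle sum and the highest for *Id1*, *Id3*, *Atoh8* and *Bambi*, while *Bmp4* and *Pdgfra* are lower in all 3 *VP* tumors.

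Likeness of pattern was described as Pearson's r of log2(TPM + 1) over the 6 tumors, which share the 2 genotypes, among 137 candidate genes of the pathway and marker lists, for the 3 genes that varied most. *Grem1* was most like *Synm*, a smooth muscle marker (r = 0.923), and *Chrd*, the BMP antagonist Chordin (r = 0.923). *Chrd* was at 3.56, 2.65 and 2.43 TPM in the *Trp53fl/fl* tumors and at 4.45, 3.81 and 1.75 TPM in *VP* tumors, again lowest in *VP* replicate 3. *Inhba* was most like *Tgfbi*, a TGF-beta-induced matrix gene (r = 0.938), and *Ascl2*, a stem cell transcription factor (r = 0.918). *Bmp4* was most like *Skil* (r = 0.968) and *Gdf3* (r = 0.926). These values of r are descriptions of the 6 tumors, with no test.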

How the data were processed

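The submitters' processing notes name HISAT2, StringTie and the mouse build mm9, without versions. Per the methods, poly(A) libraries were read from both ends, from RNA with a RIN above 8. The authors deposited TPM per gene for each tumor, with 2 decimals and without pooling. TPM are scaled to a fixed total, so each value depends on the other genes of its tumor. The files hold no coordinates. Positions here are from GENCODE M21 (GRCm38), which holds 52093 of the 54167 gene IDs (96.2%), and promoters are from RefSeq (GRCm38.p6).

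The 15117 genes that reached 1 TPM in 3 or more tumors were tested as log2(TPM + 1) with limma 3.58.1 in R 4.3.3. A linear model with genotype was fitted, variances were moderated by empirical Bayes with an intensity trend, and p-values were adjusted over all genes tested by the Benjamini-Hochberg procedure.

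The 10 genes and all lists were chosen with earlier results of these data known. The genes named are the 10, the 2 other tested genes with the largest fold change on each of 8 pathway lists, any listed gene past the adjustment, *Trp53*, and the 2 genes most like each of the 3 most variable of the 10. Any other gene was picked with its values in view, as were the markers named singly. Alternatives were a pseudocount of 0.1, no filter, quantile normalization, a minimum mean of 5 TPM, rescaling by median of ratios, centring on 12 epithelial or 10 fibroblast markers, no trend, a replicate block and each tumor left out. A gene that this rule names is not reported here. Protein sequences were not used here.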

Additional observations from a re-analysis of the deposited data

How the results depend on the processing

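None of the 10 genes passed the adjustment under any of the 15 alternatives, and the lowest adjusted p among them was 0.130, for *Bmp4* with centring on epithelial markers. The number of the 10 with an unadjusted limma p under 0.05 was 2 in the main analysis. It was 1 with no filter on low values, with median-of-ratios rescaling, with quantile normalization, with centring on fibroblast markers and with empirical Bayes with no trend, 3 with a mean of at least 5 TPM and with centring on epithelial markers, where *Smad7* was the added gene, 2 with a pseudocount of 0.1, and from 1 to 4 with a tumor left out. The 4 genes were *Bmp4*, *Grem1*, *Id3* and *Smad7*, without *VP* replicate 3. Among all genes tested, such a p was found for 12.5% in the main analysis and for 23.3% with centring on epithelial markers. The share was 8.67% to 13.5% with the other settings on all 6 tumors and 7.48% to 16.1% with a tumor left out. Over all genes tested, 25 passed the adjustment, against 7 with no filter, 10 with the replicate block and, when a tumor was omitted, 6 to 28, the lowest without *VP* replicate 2. The other settings gave 18 to 32. Over all genes the median log2 fold change was -0.07, and it was 0.00 with median-of-ratios rescaling, -0.22 with centring on epithelial and 0.07 with centring on fibroblast markers. The direction turned for *Id1* (-0.096) with centring on epithelial markers and for *Thbs1* (0.021) with centring on fibroblast markers. Omitting a tumor at a time gave log2 fold changes from -0.013 to 0.863 for *Grem1*, from -0.089 to 0.133 for *Id1*, from -0.039 to 0.344 for *Tgfb1* and from -0.229 to 0.031 for *Thbs1*, and the sign turned without *VP* replicate 2 (*Grem1*), *VP* replicate 3 (*Id1*, *Thbs1*) or *Trp53fl/fl* replicate 2 (*Tgfb1*). The cause of these shifts was not tested. The labels give replicate numbers and do not say that they pair tumors. Deviations of same-numbered tumors from their group means correlated at 0.0185, -0.0520 and 0.0175. Tumors of unlike number correlated at -0.108 to 0.0952. These values cannot show whether same-numbered tumors were handled together. With the replicate block, 2 of the 10 genes had an unadjusted p under 0.05. Where leaving out a tumor left 2 in a group, limma pooled the spread over both groups. The depth is unknown, so counting error could not be separated from the spread between tumors.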
